A study of Mus musculus with 23 samples.

Results

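Dtnb and Ank1, which belong to the dystrobrevin and ankyrin families of membrane skeleton proteins, had 4 skipped exons among the splicing events listed in skeletal muscle. The members are all events of these 2 genes in the authors' deposited table, 4 of 265 events and 2 of 221 genes. Dtnb has 3 of the exons and Ank1 has 1. The genes were selected on the same inclusion levels, differences and probabilities that put them in the table, so these values are given as a description, with no test.

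The study sequenced muscle RNA from 23 males of a pair of mouse strains to find changes in alternative splicing. NZO/HIBomDife mice, an inbred strain that becomes obese and diabetic, were on caloric restriction (3 samples), on intermittent fasting (5 samples) or fed ad libitum (5 samples). C57BL/6J mice were exercised (5 samples) or sedentary (5 samples). The table gives each listed event 1 inclusion level per group (PSI, from 0 to 1). This is the share that contain the stretch among the transcripts measured at it, not among all transcripts of the gene. Because there is no level per mouse, no spread, standard deviation or replicate test can be given for any level below, and the read depth behind a level is unknown. Every listed event differs by 0.2 or more in level, with a probability of a difference of 0.9 or more in the authors' deposited table. The labels used here state neither age nor muscle type, and neither the length of the diets nor the kind of exercise. The tissue label could not be checked by expression, since the table holds splicing events only. None of the 47 marker genes of mature muscle, satellite cells, erythroid, endothelial, immune, fat, fibroblast and nerve cells had a listed event, which says nothing about their levels.

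Muscle fibres carry protein networks under their membrane. In one of them, dystrophin joins actin inside the fibre to a complex of membrane proteins, and dystrobrevins bind to dystrophin and to the syntrophins, adaptor proteins that hold signalling enzymes at the membrane. Dtnb encodes beta-dystrobrevin, known mainly from brain, kidney and other tissues outside muscle, whereas its relative alpha-dystrobrevin, encoded by Dtna, is the better known form of the muscle fibre. Ankyrins fasten membrane proteins to spectrin. Ank1 encodes ankyrin 1, first known from the red blood cell, and also a small muscle form that sits in the membrane of the sarcoplasmic reticulum and binds the giant protein obscurin. Both genes are known to give several protein forms by alternative splicing. Mouse exon sequences were not used here, and whether each exon is coding was not determined.

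The Dtnb exons lie on the plus strand of chromosome 12 (mm10) and are called a, b and c here, in the order in which transcription reaches them. Exon a spans 3732618 to 3732707, exon b spans 3773551 to 3773640 and exon c spans 3774570 to 3774610. In RefSeq (GRCm38.p6, the same assembly) the gene runs from 3572372 to 3785486 and has 25 transcript accessions. Exon a begins 75.2% of the way along the gene, 160 kb from its start. Exons b and c lie close together near the gene's far end, 94.4% and 94.9% of the way along. Between exons a and b there are 40843 nucleotides, and between exons b and c only 929.

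The Ank1 exon spans 23110347 to 23110370 on the plus strand of chromosome 8 (mm10). The RefSeq gene runs from 22974836 to 23150501 with 29 transcript accessions, and the exon begins 77.1% of the way along it, 40.1 kb before its end. All 4 exons thus begin past 75% of the length of their genes, introns included. This place was not worked out for the other listed skipped exons, so the count does not set these exons apart.

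**Figure D1:**
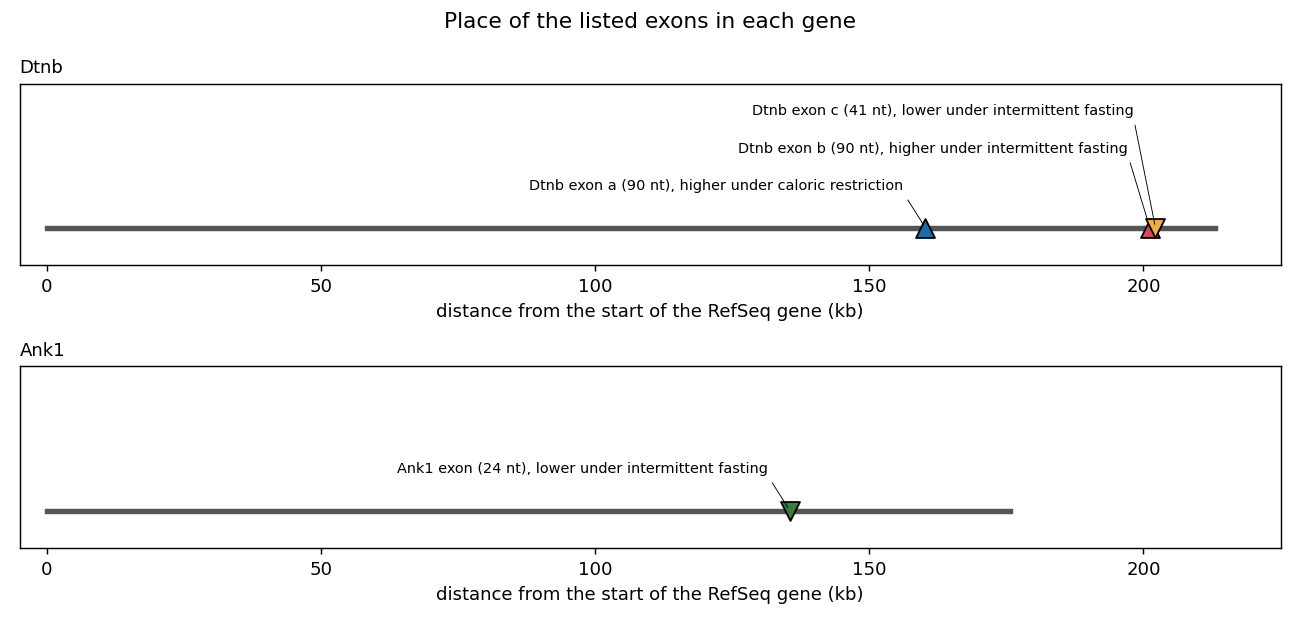
The horizontal axis is the distance in kb from the start of each RefSeq gene, the grey bar is the whole gene, and a triangle marks the start of each listed exon, pointing up where inclusion was higher under the diet and down where it was lower. Dtnb exons b and c, 929 nucleotides apart, point in opposite directions.

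Under caloric restriction, Dtnb exon a was included more often than under ad libitum feeding. Its inclusion level was 0.906 on caloric restriction and 0.639 ad libitum, a difference of 0.268. Seen from the other side, 0.0938 of the transcripts measured at the exon skipped it on caloric restriction, against 0.361 ad libitum. The odds of inclusion were 5.47 times as high on caloric restriction. In the authors' deposited table the probability of this difference was 0.96, with confidence class 1, the class of 100 of the 114 events of this comparison.

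Among the 114 events listed under caloric restriction, 52.6% had higher inclusion, and the Dtnb exon is 1 of those 60. Its difference was a small one for this list, smaller than the median absolute difference of 0.352 and in place 87 of 114 by size. Among the 60 skipped exons of the comparison it was in place 43. It did not reach an absolute difference of 0.3, which 67.5% of the listed events did. Its probability of 0.96 in the authors' deposited table was at least 0.95, as was that of 42.1% of the events. Exon a therefore ranked higher by probability, 39 of 114, than by size.

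Under intermittent fasting, the neighbouring Dtnb exons b and c went in opposite directions. Exon b was included at a level of 0.792 under fasting and 0.208 ad libitum, a difference of 0.583. Exon c was included at 0.241 under fasting and 0.731 ad libitum, a difference of -0.490. Most Dtnb transcripts measured at these exons thus contained exon b under fasting, whereas most contained exon c ad libitum. The odds of inclusion under fasting were 14.4 times those ad libitum for exon b, and 0.117 times for exon c. In the authors' deposited table the probabilities were 0.986 for exon b and 0.939 for exon c, both in confidence class 1.

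These are large differences in level for the fasting list. By absolute size exon b was in place 6 and exon c in place 16 of 79 events, and among the 37 skipped exons they were in places 2 and 3. Of the 15 skipped exons with higher inclusion under fasting, Dtnb exon b had the largest difference in level. Of the 22 with lower inclusion, exon c had the second largest. The median absolute difference of the skipped exons was 0.340. The standing was lower by log odds. Of the fasting events, 84.8% had a smaller difference in log odds than exon b, against 92.4% by level. For exon c these shares were 69.6% and 79.7%.

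The levels of exons b and c added up to 1.03 under fasting and 0.940 ad libitum, close to 1 in both groups. Exon b minus exon c was 0.550 under fasting and -0.523 ad libitum, so the exons changed places in their order of use. Whether the levels of exons b and c rest partly on the same reads was not determined, so they may not be separate measurements. These sums do not show whether single transcripts hold 1 exon, both or neither.

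Dtnb under fasting was the only case of such an opposed pair of skipped exons. The cases that could show one were few, so how common it is cannot be read from them. A gene had more than 1 skipped exon in the same comparison in 7 cases, in 5 genes, and in 6 of these all exons went in 1 direction. They were named after their values were seen: Neb, the thin-filament protein nebulin, in each of the 3 comparisons, Acss3, an acyl-CoA synthetase, and Alg6, a glucosyltransferase of protein glycosylation, under fasting, and Hspg2, the basement membrane proteoglycan perlecan, after exercise. The pair of Acss3 exons was higher under fasting (0.930 and 0.907 under fasting, 0.544 and 0.645 ad libitum) and the pair of Alg6 exons lower (0.364 and 0.557 under fasting, 0.828 and 0.912 ad libitum). With every event type counted, 13 cases had more than 1 event and 2 held both directions. The other of these 2 was Hectd2, a ubiquitin ligase, under caloric restriction.

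**Figure D2:**
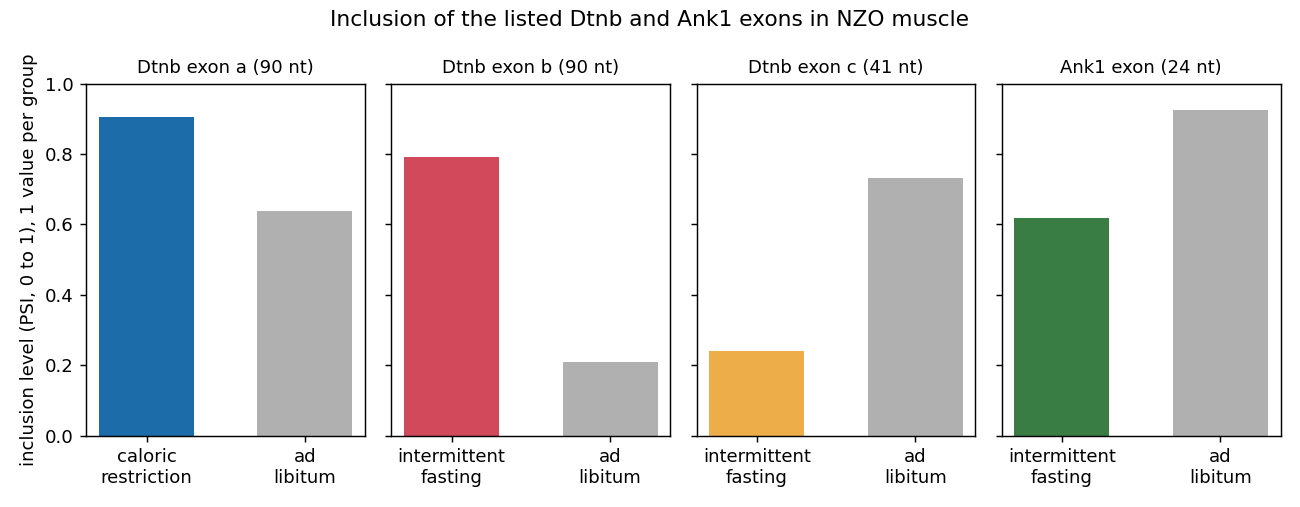
The vertical axis is the inclusion level (PSI, 0 to 1), with 1 value per group and no error, for each listed exon, with the coloured bar for the diet and the grey bar for ad libitum feeding. Exon b stands at 0.792 under fasting and 0.208 ad libitum, and exon c at 0.241 under fasting and 0.731 ad libitum.

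The Ank1 exon was included less often under fasting. Its level was 0.617 under intermittent fasting and 0.925 ad libitum, a difference of -0.307. Of the transcripts measured at the exon, a share of 0.383 skipped it under fasting, against 0.0754 ad libitum. Expressed as odds, inclusion under fasting was 0.131 times that ad libitum. The probability was 0.927 in the authors' deposited table, the lowest of the 4 exons, with confidence class 1. The ad libitum level was above 0.8, so with the limit of 0.2 this exon could be listed only as lower.

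By size the Ank1 difference was in place 57 of the 79 fasting events and 26 of the 37 skipped exons. Its standing depends on the scale, since 27.8% of the fasting events had a smaller difference in level but 62.0% had a smaller difference in log odds. Of the 3 exons listed for these genes under fasting, 1 was higher, against 39.2% of all its events, and 2 were lower, against 60.8%. All 3 reached an absolute difference of 0.3, as did 73.4% of the fasting events. By the authors' deposited table, exon b alone among the 3 had a probability of at least 0.95, against 35.4% of the events. With so few exons these counts do not separate the genes from the rest of the list.

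None of the 4 exons was listed in more than 1 comparison. The same event was listed under both diets in 10 cases, 8.77% of the caloric restriction events and 12.7% of the fasting events. Exon a was not listed under fasting, and exons b, c and the Ank1 exon were not listed under caloric restriction. Neither gene had an event after exercise in C57BL/6J muscle, 0 of the 72 listed there. Of those 72, 48.6% were higher and, by the authors' deposited table, 31.9% had a probability of at least 0.95. An exon that is not listed may have missed the limit on size or on probability, or may not have been measured well enough, so these blanks do not show that its level was the same in both groups. Whether the diets differ from each other at any of these exons was not tested, and both diets were set against the same ad libitum mice.

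**Figure D3:**
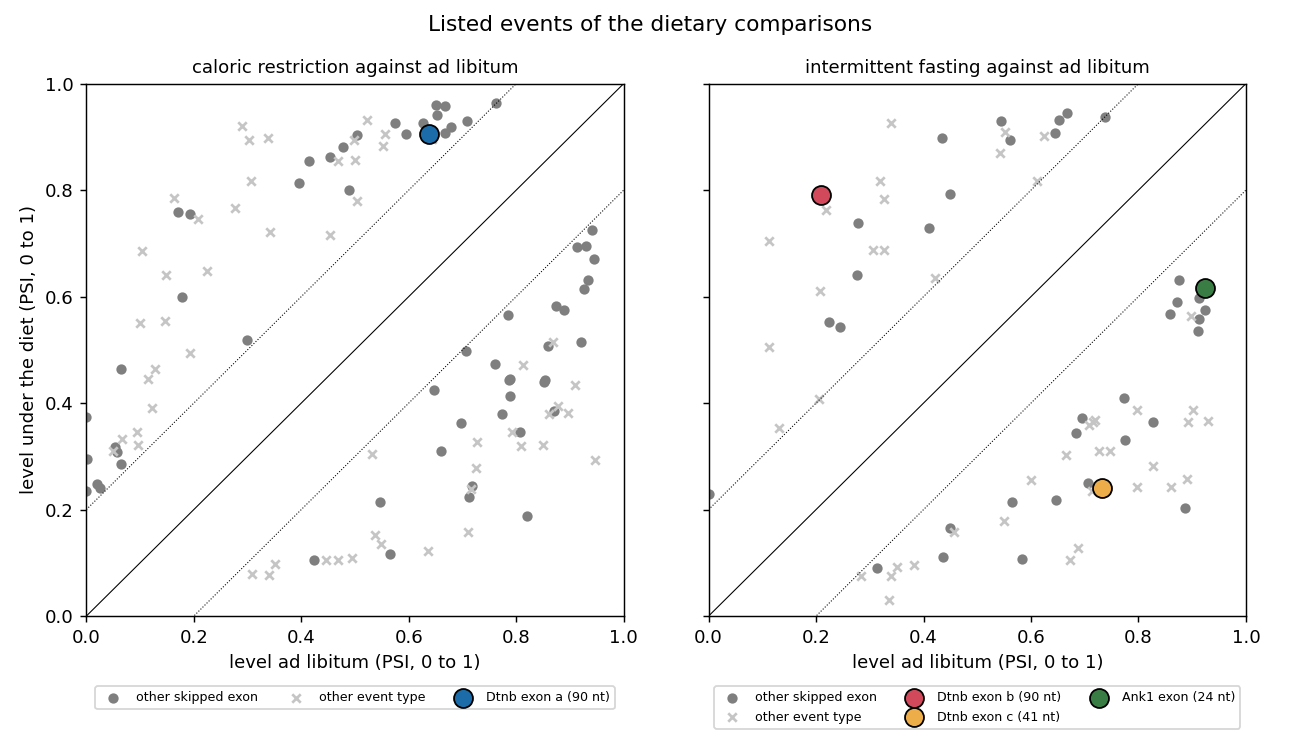
Each point is a listed event, with its level ad libitum on the horizontal axis and its level under the diet on the vertical axis (PSI, 0 to 1), dots for other skipped exons, crosses for other event types and large circles for the Dtnb and Ank1 exons. The solid line marks equal levels and the dotted lines a difference of 0.2. Dtnb exon b stands away from most skipped exons, and the Ank1 exon lies in a group with high ad libitum levels.

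The 4 exons differ in length and in what their skipping would do to a reading frame. The table does not state how positions are counted, and lengths are given here with positions counted from 1 and both ends included. Dtnb exons a and b are both 90 nucleotides long and the Ank1 exon is 24, all divisible by 3. Exon c, at 41 nucleotides, leaves a remainder of 2. If coding, exons a and b would each add or remove 30 amino acids and the Ank1 exon 8 without a change of frame, while exon c would shift the frame of what follows. Thus of the pair of Dtnb exons opposed under fasting, the exon with higher inclusion keeps the frame and the exon with lower inclusion does not. This holds only under that way of counting: with starts counted from 0, 0 of the 4 exons would keep the frame.

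Among all 132 listed skipped exons, 78 had a length divisible by 3, which is 59.1% (exact 95% binomial interval over listed events 50.2% to 67.6%, which does not cover variation between mice). The share was 70.0% of 60 under caloric restriction and 51.4% of 37 under fasting. The 3 of 4 seen here rest on too few exons to be set apart from these shares. The Ank1 exon was among the shortest of the whole list: none was shorter, and the median was 93 nucleotides. Only 12 listed skipped exon events were shorter than exon c, and 60 were shorter than exons a and b. An exon is counted here once for each comparison that lists it.

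**Figure D4:**
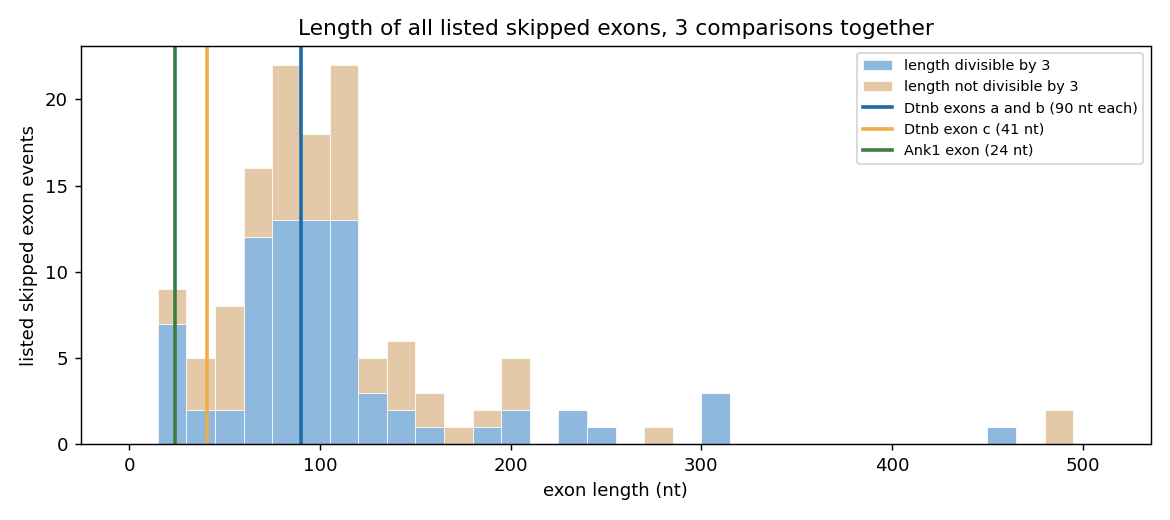
The bars count listed skipped exon events by length in nucleotides, in bins of 15, divided by whether the length is divisible by 3, and the vertical lines mark the Dtnb and Ank1 exons. The Ank1 exon, at 24 nucleotides, lies at the short end, and Dtnb exons a and b, at 90, lie near the median of 93.

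For each exon, the skipped exons with the most similar pair of levels in the same comparison were found by the distance between the pairs, which rests on only 2 group levels. Closest to Dtnb exon a were exons of Slc2a8, a glucose transporter (0.927 on caloric restriction and 0.627 ad libitum, distance 0.0237), and of Hectd2 (0.907 and 0.668 in those groups, distance 0.0293). Within a distance of 0.1 lay 9 of the other 59 skipped exons. Exon b had 1 of 35 within that distance, in Shld2, a DNA repair protein (0.738 under fasting and 0.278 ad libitum, distance 0.0875). The next was in Tbc1d5, a regulator of membrane trafficking (0.640 and 0.276 in those groups, distance 0.166). Exon b is thus the most isolated of the 4 by its levels.

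Exon c had 3 of 35 neighbours within 0.1, the closest in Rnf111, a ubiquitin ligase (0.251 under fasting and 0.707 ad libitum, distance 0.0261), and the next in Lrch1 (0.218 and 0.646 in those groups, distance 0.0887). The Ank1 exon had 7 of 36. The closest were in Shq1, an assembly factor of small nucleolar ribonucleoproteins (0.597 under fasting and 0.913 ad libitum, distance 0.0234), and in Nek1, a protein kinase (0.574 and 0.923 in those groups, distance 0.0430). These likenesses of 2 levels carry no statement on shared function.

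No other gene on the lists for the dystrophin complex or for the spectrin and ankyrin skeleton had an event. Of 23 genes of the dystrophin complex, among them Dmd, Utrn, Dtna, the syntrophins and the sarcoglycans, Dtnb was the 1 with an event. Of 24 genes of the spectrin and ankyrin skeleton, among them Ank2, Ank3, the spectrins and the adducins, Ank1 was the 1 with an event. None of 12 neuromuscular junction genes was listed. The lists say nothing of genes that were measured but not called, so no enrichment can be read from these counts.

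From a further list of genes of the costamere and focal adhesion, the sites that tie the sarcomere to the membrane, Zyx, the focal adhesion protein zyxin, had a skipped exon (chromosome 6, 42351270 to 42351362) with a level of 0.766 in exercised and 0.525 in sedentary muscle. Its length of 93 nucleotides is divisible by 3. It was listed in the other strain and in another comparison than the Dtnb and Ank1 exons.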

How the data were processed

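RNA of skeletal muscle was extracted with a column kit with DNase treatment, per the labels' protocols. Splicing was analysed by the authors with Whippet and rMATS, per the design text in the labels. Versions, depth and the tool behind each value are not stated there. Per the submitters' processing notes, the build is mm10. Inclusion levels were deposited as fractions from 0 to 1, with 1 level per group in 3 comparisons. Signed differences, probabilities and confidence classes were deposited as scores of the authors. The deposited difference is control minus treated (largest gap to the levels 1e-05), so it was turned round here. The probability is not a p-value, and the meaning of the class is not stated.

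Rows were chosen by gene symbol, and 219 of 221 symbols matched RefSeq (GRCm38.p6). Lengths count both ends, with positions read as counted from 1, which no header states. Of the 132 skipped exon events 78 lengths leave no remainder by 3, 25 leave 1 and 29 leave 2. Event counts, ranks, distances and exact binomial intervals were computed with Python 3.11.15, numpy 2.4.6, pandas 2.3.3 and scipy 1.17.1. Figures were drawn with matplotlib 3.10.9. Only the counts by frame and by direction and the percentages of smaller differences were checked on simulated tables. Groups came from the intervention label. The treatment label reads intermittent fasting for every NZO sample and exercise for every C57BL/6J sample, controls included, and was taken as the name of the experiment. The genes named by plan are those with a row for Dtnb or Ank1, listed members of the 4 gene lists, the 2 most similar skipped exons per member and genes with opposed exons. Neb, Acss3, Alg6, Hspg2, Gopc and Gpr137 were named in addition, after their values were seen. Members and lists were chosen with earlier results of these data known. A result from the gene lists is not reported here.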

Additional observations from a re-analysis of the deposited data

How the results depend on the processing

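All 4 differences kept their direction with the deposited differences and as differences of log odds. The number of listed exons, 4, was 2 at a probability of at least 0.95 (Dtnb exons a and b), 3 at an absolute difference of at least 0.3 and 4 in class 1. Had starts been counted from 0, none (0) of the 4 exons and 18.9% of the 132 skipped exon events would keep the frame, against 3 of 4 and 59.1%. Without Neb the share was 53.4%. The percentage of listed events with a smaller difference than the member was 79.7% for Dtnb exon c. It was 91.9% among skipped exons alone and 69.6% by log odds. For Ank1 it was 27.8% by level and 62.0% by log odds, a scale that widens differences near 1. Of 26 alternative values, 21 kept the direction (the log odds, on another scale) or were counted as near the value reported. Those counted as near include 3 exons against 4, and 69.6% against 79.7% for Dtnb exon c. The 5 that were not near were 2 exons at the stricter probability, both values with starts counted from 0, 91.9% and 62.0%. Replicates could not be left out, because the table has 1 level per group, and the depth behind each level is unknown. No paired analysis was possible because the labels pair no mice and no level per mouse was used.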

Other observations

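The short length of the Ank1 exon led to a look at the other short skipped exons, a limit of 30 nucleotides being chosen after the lengths were seen. The table has 9 such events at 8 positions, and 8 of the 9 had lower inclusion in the treated group, against 51.2% of the 123 longer skipped exon events. An exon of Gopc, a Golgi trafficking protein, has the same length of 24 nucleotides as the Ank1 exon and was listed as lower under both diets, with 0.380 on caloric restriction and 0.774 ad libitum, and 0.331 under fasting and 0.775 ad libitum. The exception was a 28-nucleotide exon of Gpr137, a membrane protein, with 0.949 in exercised and 0.746 in sedentary muscle. Of the 9 control levels, 4 were above 0.8, from which an event could be listed only as lower. No test was made, since the group was formed after its values were seen and the diets share their control mice.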
